A study of Mus musculus with 36 samples.

Results

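The 41 DNA replication genes described here encode the proteins that license origins, unwind and copy DNA, supply its precursors and package it again. They were chosen by symbol as known replication proteins, by a rule that uses no measured value but with earlier results of these data known, and all 41 were found among the 54735 gene symbols of the deposited table. RNA came from 3 mouse embryonic fibroblast lines, one wild type (WT), one with GCN2 deleted and one with PERK deleted. GCN2 and PERK are kinases that phosphorylate the translation factor eIF2alpha, GCN2 when amino acids run short and PERK when proteins misfold in the endoplasmic reticulum (ER). Cells of each line were untreated, received the solvent DMSO, were kept for 6 h in RPMI medium without lysine and arginine (starvation), or received 200 nM thapsigargin for 6 h, a drug that blocks the calcium pump of the ER. Each of the 12 groups held 3 libraries, 36 in all, which the labels call technical replicates, so every p-value below measures only the spread between such replicates. With 1 line of each genotype, an effect of the deletion and one of the line cannot be told apart. The labels name no control for the change of medium.

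Replication starts at origins bound by the origin recognition complex, whose subunits include Orc1 and Orc6. In G1 phase Cdc6 and Cdt1 load the ring-shaped Mcm2 to Mcm7 helicase there, a step called licensing, and in S phase Cdc45 and the GINS proteins complete the active helicase. Many of these genes are transcribed under E2F factors around the G1/S transition, so their mRNA level moves with the share of cycling cells. In bulk RNA fewer cells in S phase and less RNA per cell cannot be told apart.

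The E2F connection can be seen in the promoter letters of the members. RefSeq promoter windows on GRCm38.p6, from 250 bases before to 50 bases after the gene start, were at hand for 34 of the 41 members. An E2F consensus, read as TTTCCCGC, TTTCGCGC, TTTGCCGC or TTTGGCGC on either strand, was present in 14 of the 34 members (41.2%) and in 704 of 27025 genes (2.60%). A CCAAT box, another promoter element common at cell cycle genes, was present in 22 of the 34 members (64.7%) and in 41.1% of all genes. The 30-base windows below are shown for members of the licensing and helicase groups, 5′ to 3′ on the gene's strand, with the E2F match in capitals. On these strands GCGGGAAA, GCGCGAAA and GCGCCAAA are the reverse complements of the listed words. The capitals of Mcm5 and Mcm6 span overlapping matches on both strands, counted separately.
Orc1: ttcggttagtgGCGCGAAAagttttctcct
Cdc6: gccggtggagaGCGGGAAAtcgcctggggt
Cdt1: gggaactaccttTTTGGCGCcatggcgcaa
Mcm3: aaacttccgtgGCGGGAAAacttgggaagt
Mcm5: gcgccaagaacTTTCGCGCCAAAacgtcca
Mcm6: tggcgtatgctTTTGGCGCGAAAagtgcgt
Mcm7: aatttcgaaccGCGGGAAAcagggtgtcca
Gins3: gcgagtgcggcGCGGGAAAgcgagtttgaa
The windows lie at chr4:108579416-108579445 for Orc1, chr11:98908002-98908031 for Cdc6, chr8:122568035-122568064 for Cdt1, chr1:20820275-20820304 for Mcm3, chr8:75109345-75109374 for Mcm5, chr1:128359797-128359826 for Mcm6, chr5:138172030-138172059 for Mcm7 and chr8:95633507-95633536 for Gins3. The strand is minus for Mcm3, Mcm6 and Mcm7 and plus for the others. The Cdc6 match begins 138 bases before the RefSeq start of its gene, and the Cdt1 match lies after that of Cdt1, from base 33. RefSeq and GENCODE starts can differ, and the Cdc6 window shown lies inside the GENCODE locus of Cdc6 given below. A match describes letters in a window and is not a measured binding site.

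All 41 members were transcribed in every library. Their levels are given in TPM, an abundance unit scaled for transcript length to a fixed total, so that genes can be compared with each other. Pcna, the sliding clamp that holds DNA polymerases on DNA, had the highest mean over the 36 libraries, at 379 TPM, and Gins3, a GINS subunit, the lowest, at 14.7 TPM. The lowest value of any member was 9.95 TPM, for Gins3 in starved WT replicate 1. For most members the range over all libraries was narrow. The highest library of Mcm2, for example, was 1.45 times its lowest. The widest ratios belonged to Pold1 (2.75), Cdt1 (2.58), Rpa3 (2.54) and Cdc6 (2.30).

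Libraries of one group correlated at 0.962 to 0.988 over all genes tested. Eif2ak4, which encodes GCN2, ran from 4.54 to 7.89 TPM in the 12 libraries of the GCN2-deletion line and from 18.4 to 28.1 TPM in the 12 of WT. Eif2ak3, which encodes PERK, ran from 3.41 to 9.26 TPM in the PERK-deletion line and from 3.82 to 13.0 TPM in WT. These ranges pool all treatments and overlap, so across treatments Eif2ak3 RNA alone does not separate the libraries of these lines. Of 10 fibroblast markers, 1 was below 1 TPM in WT (Lum), 2 in the GCN2-deletion line (Dcn and Lum) and up to 4 in the PERK-deletion line (Dcn, Lum, Pdgfra and, outside the thapsigargin group, Col3a1), and all 5 epithelial markers were below 1 TPM. In 2 libraries over 2% of TPM fell on microRNA genes, replicate 1 of the GCN2-deletion line with DMSO and replicate 3 of the untreated PERK-deletion line. Counts that move without them are given below.

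In WT and the GCN2-deletion line the licensing genes Cdc6 and Cdt1 rose more with thapsigargin than any other member, and in the PERK-deletion line Cdc6 alone rose. Cdc6, on chr11:98907801-98923940 of GRCm38 (plus strand), encodes the ATPase that brings the helicase to origins. In WT it stood at 42.8, 39.7 and 40.9 TPM with DMSO and at 80.4, 78.7 and 76.8 TPM with thapsigargin. Without GCN2 it went from 40.0, 41.1 and 42.1 TPM to 87.5, 83.3 and 83.4 TPM, and without PERK from 43.2, 46.9 and 41.2 TPM to 66.6, 71.6 and 66.5 TPM. In each line all treated libraries lay above all DMSO libraries, and the DMSO levels of the 3 lines overlapped. The log2 changes, on the log2(TPM + 1) scale used throughout, were 0.92 ± 0.055 (SE; adjusted p = 3.71e-13) for WT cells, 1.03 ± 0.055 (adjusted p = 3.04e-14) for GCN2-deletion cells and 0.63 ± 0.055 (adjusted p = 3.14e-09) for PERK-deletion cells, by limma with Benjamini-Hochberg adjustment over 16083 genes.

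Cdt1, on chr8:122568015-122573554 (plus strand), encodes the partner of Cdc6 that delivers the Mcm2 to Mcm7 ring. With DMSO it read 85.8, 86.4 and 80.8 TPM in WT, and with thapsigargin 143, 154 and 131 TPM. The GCN2-deletion line went from 85.4, 76.2 and 83.4 TPM to 196, 195 and 176 TPM. PERK-deletion cells had 101, 110.3 and 97.8 TPM with DMSO and 99.4, 92.2 and 98.8 TPM with thapsigargin, ranges that overlap. Cdt1 thus rose by 0.75 ± 0.082 in WT cells (adjusted p = 4.44e-08) and by 1.20 ± 0.082 in GCN2-deletion cells (adjusted p = 4.21e-12). Its log2 change in PERK-deletion cells was -0.09 (95% interval -0.26 to 0.08, adjusted p = 0.730). A read-through transcript, Gm20388, overlaps Cdt1 on the same strand, and how reads were divided between them is not given in the sources used here.

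The difference between lines was tested for both genes. Relative to WT, the Cdt1 response of the PERK-deletion line was lower by -0.84 ± 0.116 log2 units (adjusted p = 7.57e-06), and the Cdc6 response by -0.29 ± 0.078 (adjusted p = 0.0129). The Cdc6 difference missed the threshold without replicate 2 of the PERK-deletion DMSO group (adjusted p = 0.0520). Between the GCN2-deletion line and WT the Cdc6 difference was 0.11 (95% interval -0.05 to 0.27), which did not pass. For Cdt1 it was 0.45 ± 0.116 (adjusted p = 0.0113). That last difference missed the threshold after median-of-ratios rescaling of the libraries (0.28, adjusted p = 0.0849).

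**Figure D1:**
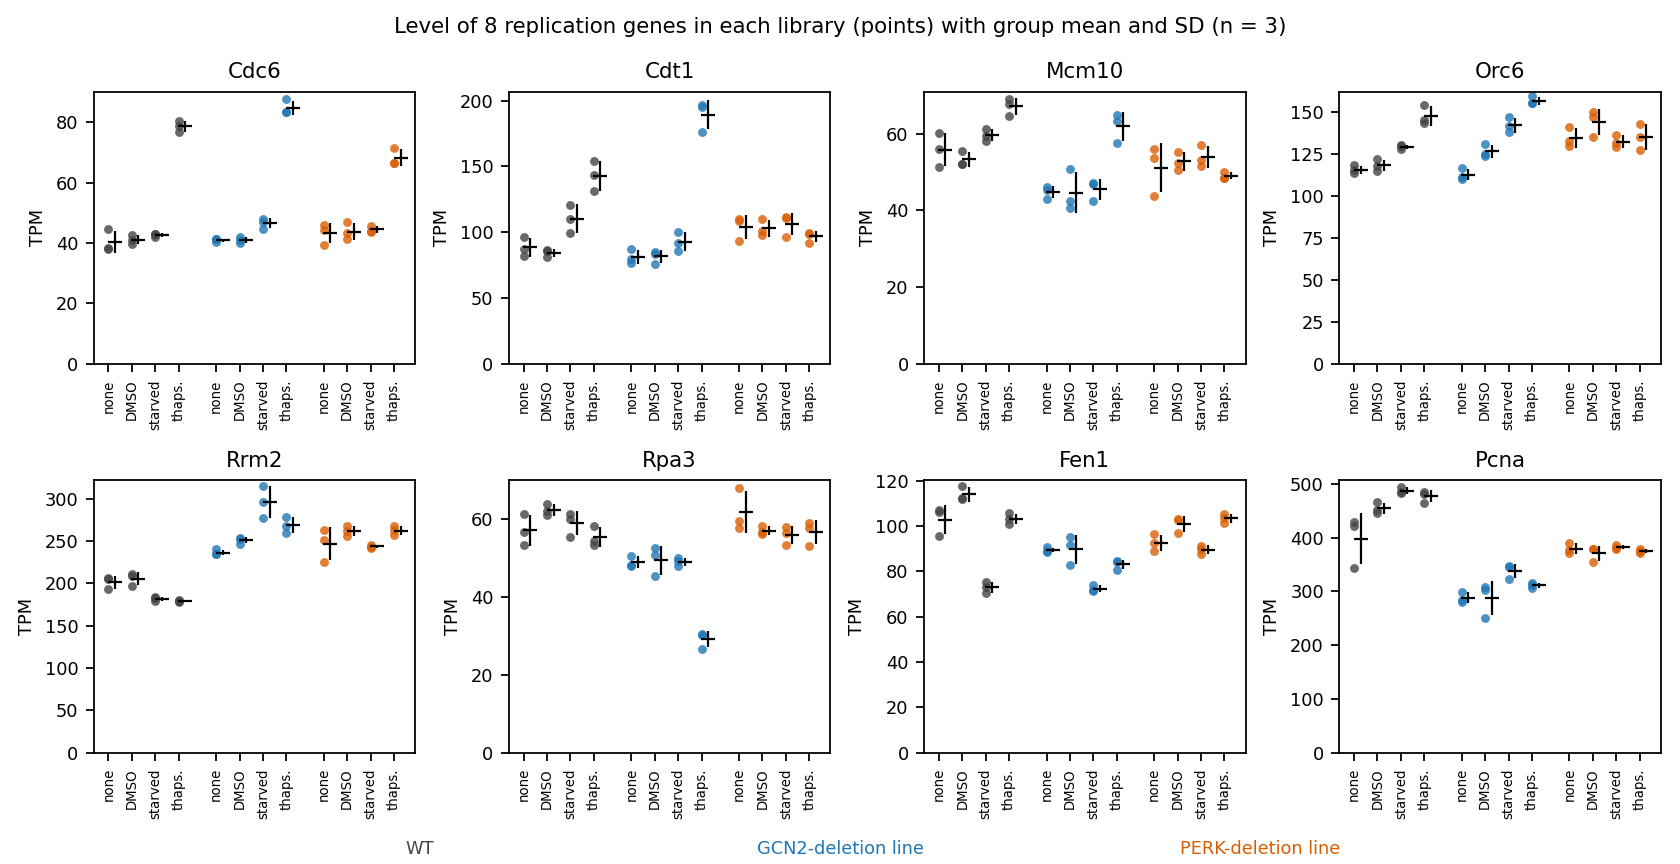
Level of 8 replication genes, in TPM, in each of the 36 libraries (points), with the mean and SD of each group of 3 libraries. Cdc6 rises with thapsigargin in all 3 lines, from 39.7 to 46.9 TPM with DMSO to between 66.5 and 87.5 TPM, while Cdt1 reaches 131 TPM or more with thapsigargin in WT and the GCN2-deletion line and no more than 99.4 TPM in the PERK-deletion line.

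With these genes, 13 of the 41 members rose with thapsigargin in WT and 2 fell (19 and 1 after median-of-ratios rescaling). Of all genes tested 11.4% rose and 14.8% fell (2324 genes rose after rescaling). The median log2 change was 0.11 over the members and -0.04 over all genes. In the order of their roles, 3 of 4 licensing genes rose, 6 of 12 helicase genes, 0 of 9 polymerase and primase genes, 2 of 6 clamp and clamp loader genes, 1 of 3 single-strand binding genes and 1 of 2 chromatin assembly genes. Orc6, a small subunit of the origin recognition complex, rose from 115, 122 and 118 TPM to 143, 145 and 154 TPM (log2 0.32). Orc1, the ATPase of that complex, read 23.5, 17.8 and 22.3 TPM with DMSO and 18.6, 18.8 and 17.8 TPM with thapsigargin, and its change of -0.19 did not pass (adjusted p = 0.175).

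Of the helicase group, Cdc45 rose by 0.36, Mcm10, which helps to start the helicase, by 0.33, Mcm3 by 0.24, Gins1 by 0.21, Gins4 by 0.20 and Mcm2 by 0.18. Mcm2 read 188, 178 and 184 TPM with DMSO and 224, 206 and 194 TPM with thapsigargin, groups that lie close together without overlap. Its call ended when DMSO replicate 2 or 3 or thapsigargin replicate 1 or 2 was left out, with adjusted p 0.0566 to 0.167. Mcm6 went from 177, 165 and 177 TPM to 197, 186 and 199.7 TPM without passing. The clamp loader genes Rfc4 and Rfc3 rose by 0.34 and 0.27, and Chaf1b, a subunit of the histone chaperone CAF-1, rose by 0.34. Rpa2, the middle subunit of the single-strand binding protein RPA, rose by 0.16. The Gins1 call ended without DMSO replicate 1 or thapsigargin replicate 3 (adjusted p 0.0700 to 0.122), and the Rpa2 call without thapsigargin replicate 3 (0.0663).

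The 2 genes that fell in WT did so by little. Rrm2, the regulated subunit of ribonucleotide reductase, which makes deoxynucleotides, read 211, 197 and 209 TPM with DMSO and 178, 180.0 and 179 TPM with thapsigargin (log2 -0.20, adjusted p = 0.00146). Its larger partner Rrm1 stayed at 177, 167 and 176 TPM against 168, 176 and 176 TPM. Fen1, the nuclease that trims Okazaki fragments, went from 112, 118 and 112 TPM to 101, 103 and 106 TPM (log2 -0.14, adjusted p = 0.0218). The Fen1 call ended without DMSO replicate 2 or thapsigargin replicate 1 or 2 (adjusted p 0.0574 to 0.0947), and against the untreated group its change was 0.01 (adjusted p = 0.951).

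Thapsigargin raised 23 members and lowered 1 in the GCN2-deletion line, in a comparison where 25.4% of all genes tested rose and 11.3% fell. The member median was 0.23 and that of all genes 0.08. After median-of-ratios rescaling the counts were 16 risen and 4 fallen, against 3076 and 3177 of all genes. This split, and whether more members rose here or in WT, thus depend on the scaling. Without the DMSO library of high microRNA share 24 rose and 2 fell. Other signs moved with this treatment: mitochondrial genes took 4.27% to 5.78% of TPM with thapsigargin and 6.39% to 7.29% with DMSO, and the 10 fibroblast markers summed to 5452 to 5578 TPM against 6144 to 6603 TPM. The 5 endothelial markers summed to 5.15 to 6.84 TPM against 2.20 to 3.89 TPM, with Cdh5, Tek and Emcn below 1 TPM in both groups. The part of these signs in the result was not tested. Of the 13 members that rose in WT, 11 rose here too, which is 84.6% of the WT list and 47.8% of the 23, where the shares over all genes were 83.0% and 37.3%. After rescaling 14 members rose in both, 73.7% of the WT list and 87.5% of the other, against 66.6% and 50.3% over all genes. After Cdt1 and Cdc6 the largest rises were Mcm10 (0.47), Rfc1 (0.44), which encodes the large clamp loader subunit, and Mcm7 (0.39). Mcm6 went from 150.0, 161 and 157 TPM to 202, 184 and 206 TPM (log2 0.34), and Mcm2 from 154, 171 and 165 TPM to 198, 181 and 198 TPM (log2 0.23), although the Mcm2 change missed the threshold after rescaling (0.10, adjusted p = 0.170). Only Cdc6 and Cdt1, in this line, passed a 2-fold change among all members and treatments. The call of Gins3 (0.26) ended without DMSO replicate 2 or 3 or thapsigargin replicate 1 or 3, that of Lig1 (0.18) without DMSO replicate 3 or thapsigargin replicate 1 or 3, and that of Rfc5 (0.23) without DMSO replicate 2 or 3 or thapsigargin replicate 3, with adjusted p 0.0591 to 0.135.

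Rpa3, the smallest subunit of RPA, was the member that fell in the GCN2-deletion line. It read 45.4, 50.7 and 52.5 TPM with DMSO and 30.2, 30.5 and 26.8 TPM with thapsigargin, so all treated libraries lay well below the controls. The log2 change was -0.75 ± 0.064 (adjusted p = 3.09e-10). WT cells went from 61.1, 64.0 and 62.3 TPM to 54.5, 53.4 and 58.4 TPM, and PERK-deletion cells from 56.2, 56.8 and 58.3 TPM to 57.7, 59.2 and 53.2 TPM. The response in the GCN2-deletion line was lower than in WT by -0.58 ± 0.090 (adjusted p = 9.31e-05). Rpa3 parted here from its partner Rpa2, which rose by 0.32 from 64.6, 64.4 and 60.2 TPM to 83.3, 73.7 and 79.7 TPM. Rpa3 lies at chr6:8255936-8259173 (minus strand).

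Without PERK, Cdc6 was the 1 member that rose with thapsigargin and 0 fell, at backgrounds of 2.5% and 2.8% of all genes. The median member change was -0.02. At an unadjusted p under 0.05 in limma, 2 members were higher and 1 lower, with no share of all genes counted at that threshold. Against the untreated group in place of DMSO 3 rose and 2 fell. Here Mcm2 read 194, 201 and 184 TPM with DMSO and 185, 183 and 186 TPM with thapsigargin, and Orc6 147, 149.7 and 135 TPM against 135, 143 and 127 TPM. For both genes the ranges overlap.

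**Figure D2:**
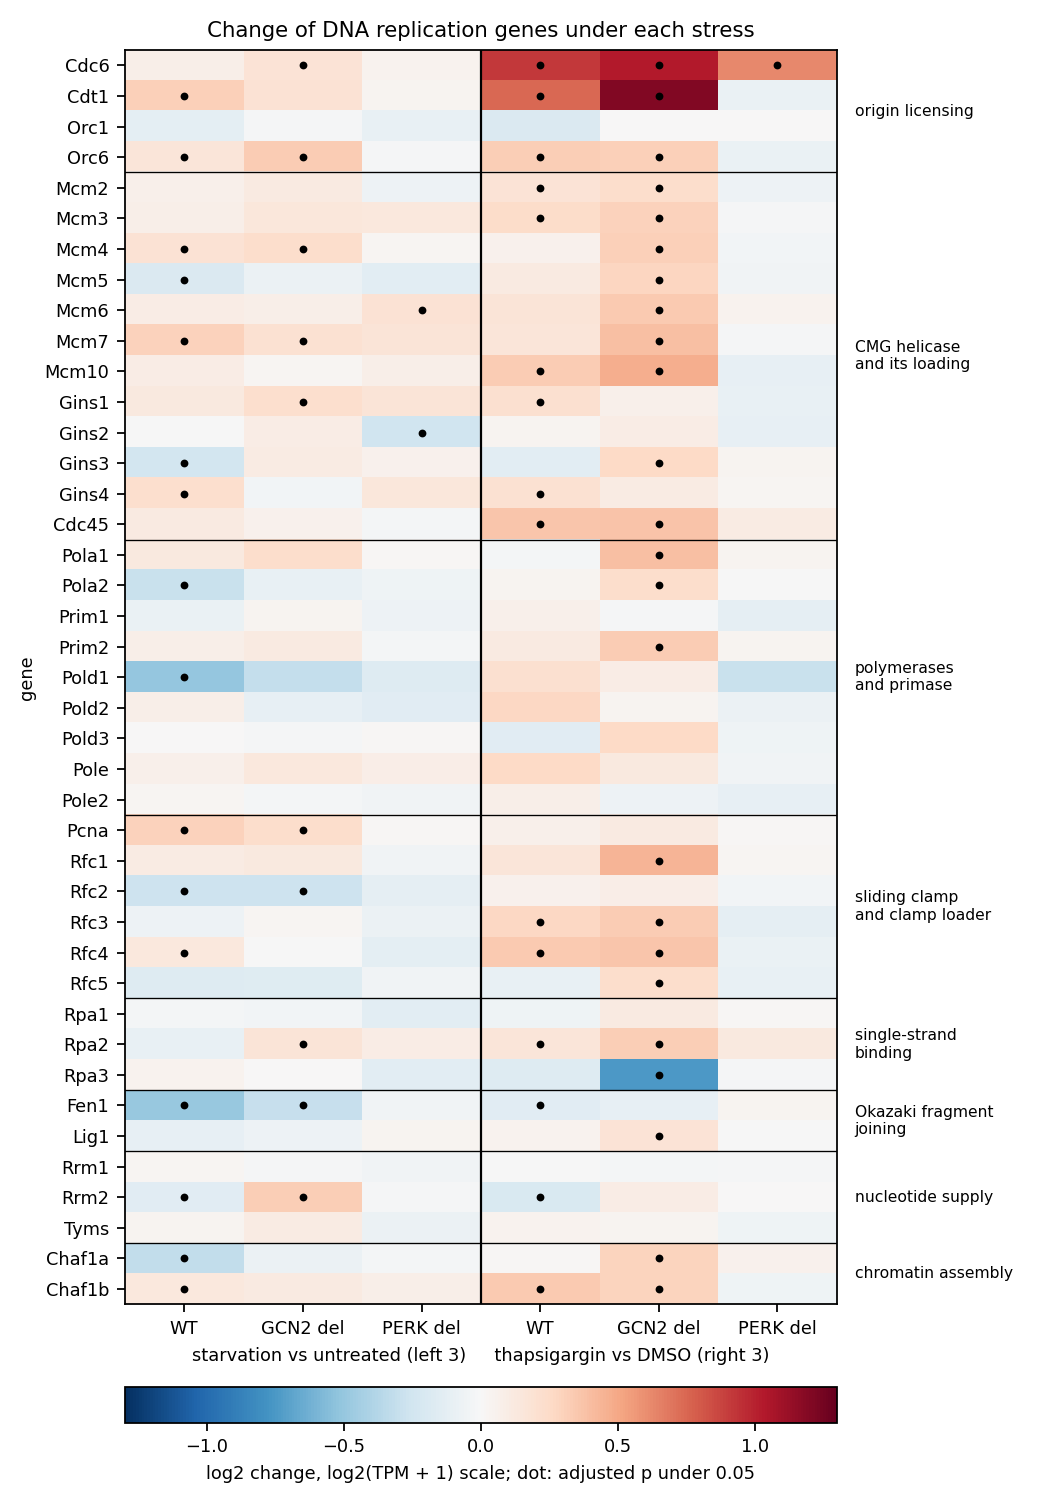
Log2 change of each of the 41 members (rows, log2(TPM + 1) scale) with starvation against untreated (left 3 columns) and with thapsigargin against DMSO (right 3 columns) in WT and both deletion lines. A dot marks an adjusted p under 0.05; Cdc6 carries one in all 3 thapsigargin columns, and the PERK-deletion columns hold the fewest.

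Tested as differences from WT, 9 members responded less to thapsigargin in the PERK-deletion line and 1 responded more, where 7.38% and 5.59% of all genes did. The same counts were found after rescaling. The 9 are Cdt1 (-0.84), Mcm10 (-0.43), Rfc4 (-0.42), Orc6 (-0.41), Chaf1b (-0.39), Rfc3 (-0.38), Gins1 (-0.30), Cdc6 (-0.29) and Cdc45 (-0.25). Of Mcm10, for instance, WT read 55.6, 52.1 and 52.2 TPM with DMSO and 64.5, 67.6 and 69.1 TPM with thapsigargin, and the PERK-deletion line 52.4, 55.3 and 50.5 TPM and 48.5, 50.1 and 48.4 TPM. WT rose above its controls, and the treated PERK-deletion libraries lay below theirs. The member that responded more was Rrm2 (0.20), which fell in WT and in the PERK-deletion line read 261, 268 and 256 TPM with DMSO and 257, 267 and 262 TPM with thapsigargin. For Cdc45 and Rrm2 leaving out any 1 of 9 among the 12 libraries ended the call, with adjusted p 0.0525 to 0.102. That of Gins1 ended without PERK-deletion DMSO replicate 2 or thapsigargin replicate 1, or WT DMSO replicate 1 or thapsigargin replicate 3 (adjusted p 0.0665 to 0.0962).

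Measured against the same WT libraries, the thapsigargin response of the GCN2-deletion line was higher for 5 members and lower for 1, against 12.3% and 1.95% of all genes. These were Cdt1 (0.45), Gins3 (0.40), Rfc5 (0.33), Rrm2 (0.29) and Prim2 (0.21) above Rpa3 (-0.58). Gins3 went from 14.6, 12.4 and 13.2 TPM to 13.0, 11.9 and 11.4 TPM in WT and from 15.0, 14.0 and 13.3 TPM to 17.3, 15.5 and 18.8 TPM in the GCN2-deletion line. Rescaling shifted the median of all genes in this comparison from 0.13 to -0.00 and that of the members from 0.07 to -0.10, and the counts became 0 higher and 3 lower. None of the 5 higher responses passed after rescaling, and Rpa3 was among the 3 lower. Those of Gins3, Prim2 and Rfc5 also missed the threshold when any 1 of 8 among the 12 libraries was left out (adjusted p 0.0525 to 0.127).

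In WT 8 of the 41 members rose with starvation and 8 fell, against 12.5% and 17.4% of all genes. The share of members that fell was thus close to that of all genes. The member median was 0.05 against -0.05 over all genes. The largest rises were small. Cdt1 went from 96.1, 87.4 and 82.0 TPM untreated to 99.4, 121 and 110.3 TPM starved (log2 0.31 ± 0.082, adjusted p = 0.00434). Mcm7, a helicase subunit, went from 235, 298 and 258 TPM to 329.7, 324 and 319 TPM (log2 0.30, adjusted p = 0.000825), and Pcna from 344, 429 and 421 TPM to 494, 485 and 482 TPM (log2 0.30, adjusted p = 0.000551). For these genes all starved libraries lay above all untreated ones, although untreated replicate 1 was far below its partners for Pcna. Cdc6, in contrast, read 38.5, 44.6 and 38.0 TPM untreated and 43.0, 41.8 and 42.9 TPM starved, overlapping ranges. Gins4 (0.22), Mcm4 (0.19), Orc6 (0.16), Chaf1b (0.14) and Rfc4 (0.13) also rose.

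Among the 8 that fell were Fen1 and 2 of the 9 polymerase and primase genes. Fen1 went from 95.4, 107 and 106 TPM to 75.1, 73.2 and 70.4 TPM (log2 -0.49 ± 0.046, adjusted p = 2.65e-09), a gap far wider than the spread in either group. Pold1, the catalytic subunit of DNA polymerase delta, fell by 0.50 on the log2 scale (adjusted p = 0.0113), but its untreated values were 100.4, 55.7 and 64.8 TPM against 46.4, 51.6 and 52.3 TPM, and the call ended without untreated replicate 1 or starved replicate 1 (adjusted p 0.0529 to 0.171). Chaf1a fell by 0.32, Pola2, the accessory subunit of DNA polymerase alpha, by 0.28, Rfc2 by 0.27, Gins3 by 0.24, Mcm5 by 0.19 and Rrm2 by 0.15. Rrm2 read 206, 205 and 193 TPM untreated and 182, 179 and 183 TPM starved; its call ended without untreated replicate 1 or starved replicate 2 (adjusted p 0.0522 to 0.0608). Leaving out any 1 of 5 among the 6 libraries ended the calls of Chaf1b and Mcm4, and any 1 of 4 those of Rfc4 and Gins3 (adjusted p 0.0503 to 0.301). Fitted on the untreated and starved WT libraries alone, 1 member rose and 5 fell, and the shares of all genes in that fit are not given here.

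Starvation raised 8 members and lowered 2 in the GCN2-deletion line, against 11.7% and 12.2% of all genes. Orc6 went from 112, 109.9 and 116 TPM to 138, 147 and 142 TPM (log2 0.33, adjusted p = 1.91e-06). Rrm2 went from 234, 240.0 and 235 TPM to 277, 296 and 315 TPM (log2 0.32, adjusted p = 4.56e-06), opposite to its change in WT. For both genes every starved library lay above every untreated one. Fen1 fell as in WT, from 89.1, 90.6 and 88.7 TPM to 71.8, 71.1 and 74.1 TPM (log2 -0.30), and Rfc2 from 168, 164 and 162 TPM to 140.0, 138 and 132 TPM (log2 -0.27). Mcm4, Mcm7, Pcna and Orc6 rose in both lines, 4 genes of the 8 in each list, where over all genes 49.4% of the WT list and 52.8% of the other were shared. Cdc6 (0.18), Gins1 (0.22), Mcm4 (0.23), Mcm7 (0.20) and Rpa2 (0.17) also rose. The Cdc6 call ended without starved replicate 1 or 3 or untreated replicate 2, that of Gins1 without starved replicate 2, and that of Rpa2 without untreated replicate 3. That of Mcm4 ended without starved replicate 2 or 3 or untreated replicate 2, and that of Mcm7 without starved replicate 1 or 3 or untreated replicate 1 or 2, all with adjusted p 0.0524 to 0.0965.

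Without PERK, 1 member rose and 1 fell with starvation, against 5.75% and 6.39% of all genes. Mcm6 went from 173, 180.4 and 145 TPM to 200.0, 179 and 189 TPM (log2 0.19, adjusted p = 0.0477) and Gins2, a GINS subunit, from 97.4, 87.9 and 97.2 TPM to 74.1, 79.9 and 80.9 TPM (log2 -0.26, adjusted p = 0.0370). The Mcm6 ranges overlap, and its untreated replicate 3 is the library of high microRNA share. The Mcm6 call ended without that library or starved replicate 1 or 3 (adjusted p 0.0966 to 0.341), and the Gins2 call when any 1 of 5 among the 6 libraries was left out (0.0517 to 0.146). Fen1 stayed near its control here, at 92.4, 96.3 and 88.9 TPM untreated and 90.0, 87.4 and 91.3 TPM starved.

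Set against WT, the starvation response of the GCN2-deletion line was higher for 2 members and lower for 1, at 3.69% and 4.17% of all genes. Rrm2 differed by 0.47 ± 0.064 (adjusted p = 6.15e-06) and Rpa2 by 0.27, while Gins4 differed by -0.26. Rpa2 went from 76.4, 71.5 and 73.6 TPM to 70.0, 68.6 and 67.9 TPM in WT and from 60.6, 58.7 and 54.9 TPM to 64.7, 63.7 and 67.6 TPM in the GCN2-deletion line. Gins4 went from 48.9, 54.0 and 55.6 TPM to 62.0, 64.2 and 59.0 TPM in WT and stayed at 50.4, 49.1 and 49.2 TPM against 47.5, 48.1 and 49.1 TPM without GCN2. After rescaling Rrm2 was the 1 gene left, with 0 lower, and the Gins4 difference also ended on leaving out any 1 of 6 among the 12 libraries (adjusted p 0.0516 to 0.0950). In the PERK-deletion line the response was higher for Fen1 (0.44 ± 0.065, adjusted p = 1.99e-05) and lower for Pcna (-0.29) and Rfc4 (-0.27), 1 and 2 members against 5.58% and 5.34% of all genes. Rfc4 went from 57.7, 55.3 and 54.4 TPM to 63.3, 59.3 and 61.4 TPM in WT and from 81.3, 75.2 and 73.8 TPM to 72.6, 69.3 and 68.1 TPM without PERK. The Pcna difference missed the threshold when any 1 of 8 among the 12 libraries was left out (adjusted p 0.0566 to 0.128).

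The 2 stresses were compared in WT, where each has its own control. The response to thapsigargin was higher than that to starvation for 11 members and lower for 0 in limma, against 6.17% and 5.77% of all genes. At an unadjusted p under 0.05 it was higher for 15 and lower for 2. The share of all genes at that unadjusted threshold was not counted. The difference was 0.84 ± 0.078 for Cdc6 (adjusted p = 6.98e-09), 0.71 for Pold1, 0.44 for Cdt1, 0.35 for Fen1, 0.33 for Rfc3, 0.32 for Pola2, 0.32 for Rfc2, 0.31 for Mcm5, 0.26 for Rpa2, 0.24 for Cdc45 and 0.20 for Rfc4. The difference of Rfc2 ended without DMSO replicate 3, that of Rfc3 without starved replicate 3, thapsigargin replicate 3 or untreated replicate 2, and that of Pold1 without replicate 1 of the starved or untreated group, DMSO replicate 3 or thapsigargin replicate 2. Those of Rfc4 and Cdc45 ended on leaving out any 1 of 8 and of 10 among the 12 libraries (adjusted p 0.0503 to 0.156 over these genes). With the other control for each stress the Pold1 difference was -0.14 (adjusted p = 0.694). DMSO itself moved 0 of 41 members in each line in limma (4 higher and 2 lower in WT, 4 and 3 in the GCN2-deletion line and 3 and 1 in the PERK-deletion line at an unadjusted p under 0.05). It raised 0.0435%, 0.056% and 0.137% of all genes in WT, the GCN2-deletion and the PERK-deletion line and lowered 0.0746%, 0.0933% and 0.106%.

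**Figure D3:**
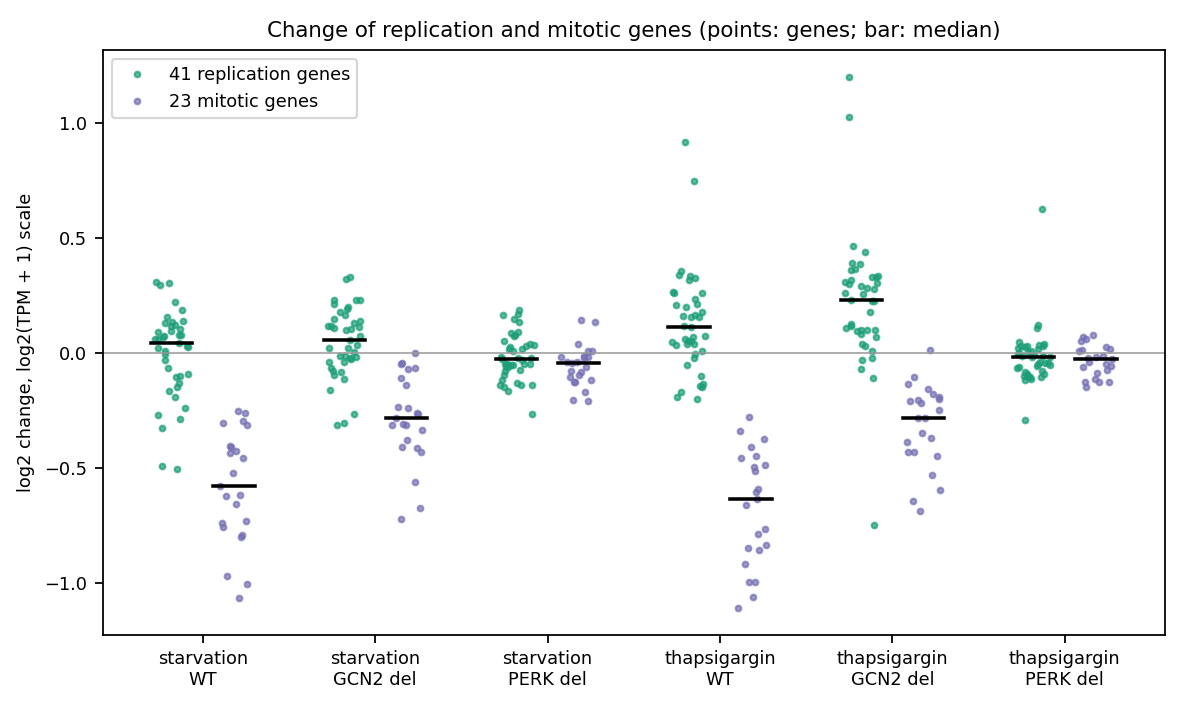
Log2 change (log2(TPM + 1) scale) of each of the 41 replication genes and 23 mitotic genes (points), with the median of each set as a bar, for starvation against untreated and thapsigargin against DMSO in the 3 lines. Under both stresses in WT the mitotic genes lie below 0 while the replication genes centre near 0.

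The replication genes were set beside genes for mitosis under the same stresses. Of 23 mitotic genes, 22 fell with starvation in WT and 23 with thapsigargin, where 17.4% and 14.8% of all genes fell. The median log2 changes of the mitotic genes were -0.58 and -0.63. In limma 0 of them rose under either stress, also at an unadjusted p under 0.05. Mki67, a marker of proliferating cells, fell by 1.06 and Plk1, a mitotic kinase, by 1.00 with starvation. With thapsigargin they fell by 1.06 and 1.11. Plk1 read 87.0, 96.1 and 97.9 TPM untreated, 46.0, 46.4 and 46.2 TPM starved, 96.1, 97.1 and 96.1 TPM with DMSO and 45.4, 46.7 and 40.7 TPM with thapsigargin. Among GCN2-deletion cells 13 of the 23 fell with starvation and 15 with thapsigargin, against 12.2% and 11.3% of all genes. The median was -0.28 in both. After rescaling 15 fell with starvation and 22 with thapsigargin, with medians of -0.29 and -0.42. Among PERK-deletion cells 0 fell with either stress in limma, where 6.39% of all genes fell with starvation and 2.8% with thapsigargin. At an unadjusted p under 0.05, 2 were lower with starvation and 4 with thapsigargin. With starvation 1 rose, against 5.75% of all genes. After rescaling 0 rose and 1 fell with starvation there, and the medians of both lists lay between -0.04 and -0.02 under both stresses before it. The thapsigargin response of 22 of the 23 was higher without PERK than in WT, and that of 0 was lower (23 and 0 at an unadjusted p under 0.05). Of the 41 replication genes 9 responded less and 1 more, against 7.38% and 5.59% of all genes. No test compared the lists with each other.

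**Figure D4:**
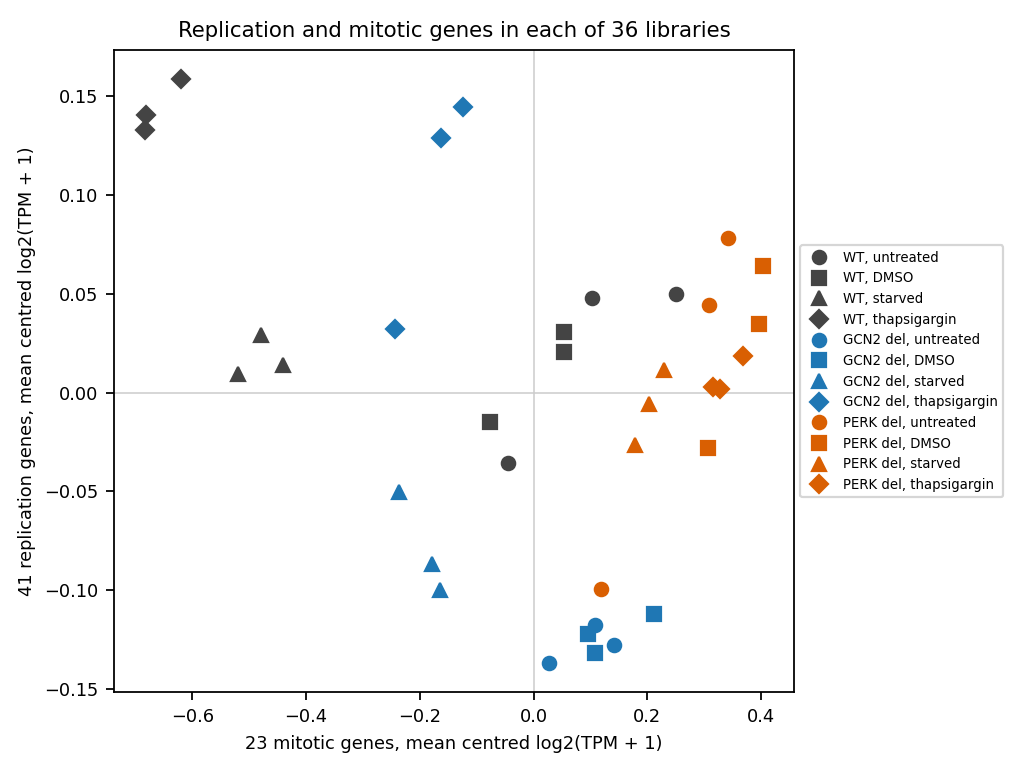
Mean centred log2(TPM + 1) of 41 replication genes (vertical axis) against that of 23 mitotic genes (horizontal axis) in each of the 36 libraries, by line and treatment. The WT libraries with thapsigargin lie at 0.133 to 0.158 for replication and -0.683 to -0.619 for mitosis, those with DMSO at -0.015 to 0.031 and -0.077 to 0.054.

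Other genes of replication and its control were counted from lists that hold none of the 41. Of 27 further replication factors, 6 rose and 3 fell with thapsigargin in WT, against 11.4% and 14.8% of all genes. Recql4, a helicase that works at origins, rose by 1.29 and Mtbp, a partner of the origin-firing factor Treslin, by 0.84, while Cdc7, the kinase that triggers firing, fell by 0.60 and Rnaseh2c by 0.31. Recql4 read 32.5, 30.8 and 30.4 TPM with DMSO and 78.8, 81.1 and 74.6 TPM with thapsigargin. Without GCN2 13 rose and 2 fell, against 25.4% and 11.3% of all genes. Mtbp (1.06) and Recql4 (0.86) led the rises and Rnaseh2c (-0.71) and Dna2 (-0.37) the falls. After rescaling 12 rose and 5 fell. Without PERK 0 passed in either direction in limma, where 2.5% of all genes rose and 2.8% fell. At an unadjusted p under 0.05, 2 were higher and 5 lower. With starvation 7 rose and 4 fell in WT, against 12.5% and 17.4% of all genes. Orc2 (0.86) and Mtbp (0.82) were highest and Cdc7 (-0.59) and Dna2 (-0.51) lowest.

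Of 21 genes of E2F and G1/S control, 3 rose and 10 fell with thapsigargin in WT, against 11.4% and 14.8% of all genes. Cdkn1a, which encodes the cell cycle inhibitor p21, rose by 0.56 and E2f1 by 0.27, while the G1 cyclins Ccnd1 and Ccne1 fell by 1.04 and 0.68. Ccnd1 read 91.3, 87.0 and 91.5 TPM with DMSO and 45.3, 42.0 and 42.5 TPM with thapsigargin. Without GCN2 7 rose and 4 fell, against 25.4% and 11.3% of all genes, with E2f7 (0.67) and Cdkn1a (0.64) highest. After rescaling 6 rose and 10 fell, so the balance of rises and falls in this list turned with the scaling. Without PERK 0 rose in limma (1 at an unadjusted p under 0.05) and 2 fell, Ccnd1 (-0.45) and Ccne1 (-0.25). Of all genes 2.5% rose and 2.8% fell there. After rescaling 1 gene of the list rose and 1 fell. With starvation Ccnd1 rose in WT, by 0.39, to 121, 125 and 128 TPM from 94.0, 100.1 and 90.8 TPM. In WT 4 of the 21 rose and 7 fell with starvation, against 12.5% and 17.4% of all genes. Of 12 genes of nucleotide supply and S-phase chromatin, 3 rose and 1 fell with thapsigargin in WT, against 11.4% and 14.8% of all genes. With starvation 3 rose and 2 fell there, against 12.5% and 17.4%. Rrm2b, the stress-inducible partner of Rrm1, rose under both, by 0.44 and 0.88, and thymidine kinase Tk1 fell by 0.23 and 0.49.

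Members with and without an E2F match in their promoter window were counted side by side. With thapsigargin in WT 4 of 14 members with a match rose and 7 of 20 without. In the GCN2-deletion line the counts were 10 of 14 and 11 of 20. Of all genes tested 11.4% rose in WT and 25.4% in the GCN2-deletion line. These counts are from the main fit, in which 23 members rose in the GCN2-deletion line, against 16 after rescaling. The median log2 changes were 0.14 and 0.07 in WT and 0.29 and 0.23 in the GCN2-deletion line. No test was made on these counts.

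Untreated, 21 members differed from WT in each deletion line. In the GCN2-deletion line 3 members were higher than in WT and 18 lower, where 21.2% and 23.2% of all genes were, and the member median was -0.15. After rescaling 4 were higher and 12 lower, and with both lines fitted alone 3 were higher and 11 lower. The shares of all genes above belong to the main fit, and those of the altered fits are not given here. Every subunit gene of the clamp and clamp loader except Rfc4 was lower. Prim1, the catalytic subunit of primase, read 118, 114 and 104 TPM in WT and 83.4, 80.4 and 82.8 TPM in the GCN2-deletion line (log2 -0.44, adjusted p = 7.46e-06). Higher were Chaf1b, at 74.3, 71.0 and 71.1 TPM in WT and 88.5, 90.4 and 80.9 TPM in the line (log2 0.26), and both subunits of ribonucleotide reductase, Rrm2 (0.23) and Rrm1 (0.23). Rrm1 read 155, 177 and 167 TPM in untreated WT and 197, 200.0 and 189 TPM in the line. The call of Pole (-0.44) was lost when untreated WT replicate 1 was left out (adjusted p = 0.0926), and those of Mcm2, Mcm4, Mcm5 and Mcm7 on leaving out any 1 of 5, 3, 4 and 3 among the 6 libraries (adjusted p 0.0572 to 0.301).

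Pcna was the member that was lowest relative to WT in that line, and its value depends on a near copy. Untreated, it read 344, 429 and 421 TPM in WT and 299, 284 and 281 TPM in the GCN2-deletion line (log2 -0.46 ± 0.063, adjusted p = 7.83e-07). The pseudogene Pcna-ps2, whose transcript matches that of Pcna at 99.2% over 781 bases, was below 0.5 TPM in all WT libraries. It ran from 57.6 to 71.6 TPM in the GCN2-deletion line and from 31.8 to 46.9 TPM in the PERK-deletion line. With the TPM of both genes summed, a setting added after the data were seen, the difference became -0.18 (adjusted p = 0.0185). The rises with starvation remained past the threshold with the sum, at 0.30 for WT (adjusted p = 0.000459) and 0.21 for GCN2-deletion cells (adjusted p = 0.0117). Both rises are against the untreated group. In WT the sum averaged 398 TPM untreated (SD 47.3), 455 TPM with DMSO (SD 10.2) and 487 TPM starved (SD 6.32). DMSO against untreated gave 0.20 for the sum in WT (adjusted p = 0.177 in limma). How reads shared by both transcripts were divided is not given in the sources used here.

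In the PERK-deletion line 10 members were higher than in untreated WT and 11 lower, against 31.2% and 18.6% of all genes. After rescaling 7 were higher and 17 lower, without the shares of all genes after rescaling given here. Pole2, the second subunit of DNA polymerase epsilon, read 27.8, 22.8 and 20.1 TPM in WT and 35.8, 38.0 and 29.8 TPM in the line (log2 0.54, adjusted p = 4.24e-06). A transcript on the same strand, Gm49384, matches Pole2 at 99.6% over 249 bases and ran from 9.42 to 18.5 TPM over all libraries. Rfc4 read 57.7, 55.3 and 54.4 TPM in WT and 81.3, 75.2 and 73.8 TPM in the line (log2 0.45), and Prim2, the large primase subunit, was higher by 0.45 too. Lig1, the ligase that seals Okazaki fragments, was lower, at 71.0, 68.3 and 56.3 TPM against 97.3, 102 and 94.4 TPM (log2 -0.59, adjusted p = 3.85e-09). It stayed between 56.3 and 71.0 TPM in all 12 libraries of the line. Pold1 was lower by 0.58 (adjusted p = 0.00196), at 51.8, 46.4 and 44.3 TPM, with the wide WT values given above. The call of Cdc45 ended without replicate 1 of the line and that of Gins2 without WT replicate 3. Those of Fen1 and Rrm1 ended without replicate 3 of the line, the library of high microRNA share, or WT replicate 2, and those of Cdt1, Gins3 and Pold3 on leaving out any 1 of 4, 3 and 3 among the 6 libraries (adjusted p 0.0511 to 0.241 over these genes). With both lines fitted alone 5 members were higher and 3 lower, and the shares of all genes in that fit are not given here.

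**Figure D5:**
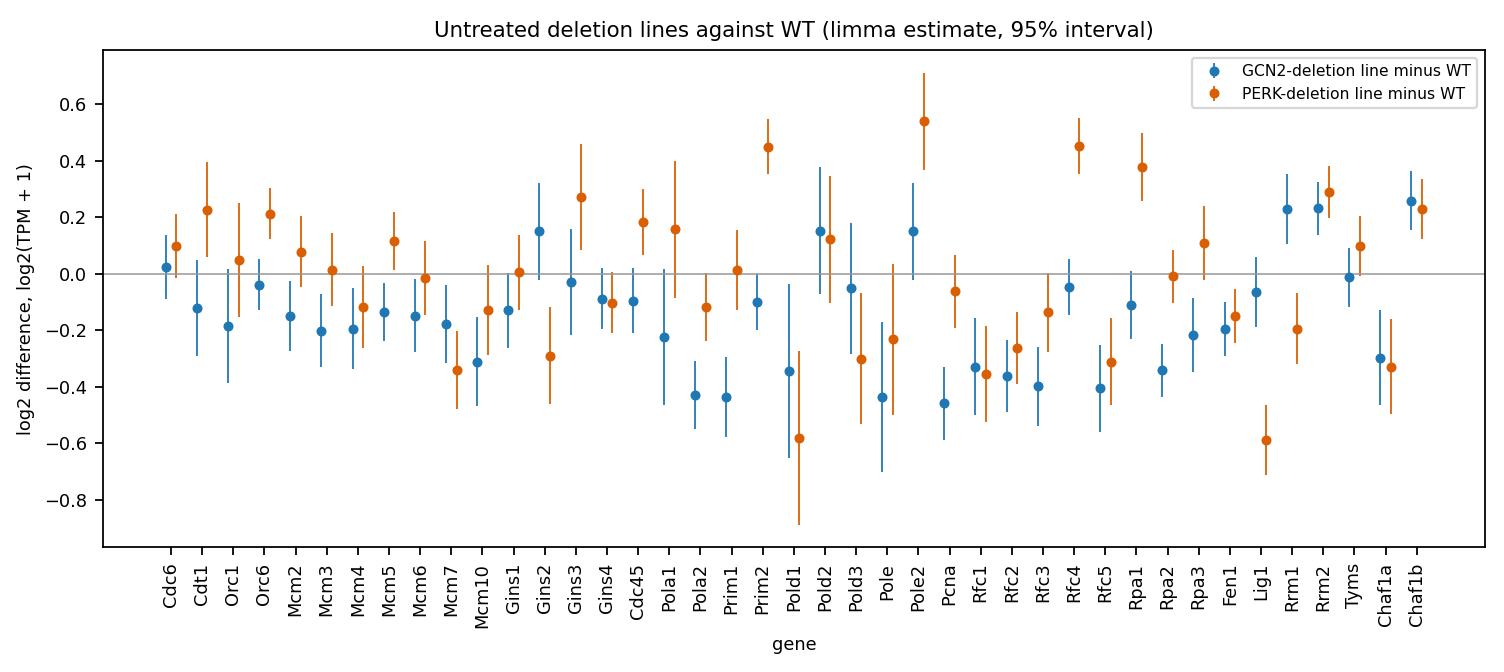
Log2 difference (log2(TPM + 1) scale) of each of the 41 members between the untreated GCN2-deletion line or PERK-deletion line and untreated WT, as limma estimates with 95% intervals. In the GCN2-deletion line 34 of the 41 estimates lie below 0, in the PERK-deletion line 20.

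Of the 41 genes, 16 overlap an annotated gene on the opposite strand and 11 one on the same strand in GENCODE M21. The library kit keeps strand, but the strand setting of the quantification is not given in the sources used here.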

How the data were processed

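RNA sequencing of 36 libraries was deposited as a table of TPM (abundance scaled for transcript length to a fixed total) per gene symbol, as the authors computed it. The submitters' processing notes name FastQC, kallisto and mm10, without versions. TPM keeps no read depth, so no counting interval or detection floor is given.

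Values were transformed to log2(TPM + 1). The test covered the 16083 genes that reached 1 TPM in 3 or more libraries, every member among them. All 12 groups entered 1 linear model in limma (3.58.1, R 4.3.3), with variances moderated along expression level, and p-values were adjusted by Benjamini-Hochberg over all genes tested in each of 16 comparisons. A gene rose or fell at an adjusted p under 0.05. The fit was tested on simulated data. Starvation was set against untreated cells and thapsigargin against DMSO. Plots used matplotlib (3.10.9, Python 3.11.15).

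The members, the other gene lists and the settings were chosen with earlier results of these data known. Levels in each library were planned for Mcm2, Mcm6, Pcna, Cdc6, Cdt1, Orc1, Rrm2 and Rrm1. They were also planned for up to 2 risen and 2 fallen members with the largest change in each comparison. For the genes named first, the text gives levels in some comparisons only. Levels of further members, among them Orc6 with thapsigargin and Fen1 in the starved PERK-deletion line, were added as examples. Of each other list up to 2 risen and 2 fallen genes with a mean of at least 5 TPM are named. Mki67 and Plk1 follow that rule, and Ccnd1, Recql4 and Plk1 levels were added as examples. Gene loci are from GENCODE M21 on GRCm38.

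Results were recomputed after median-of-ratios rescaling, with a pseudocount of 0.1, with no filter or one at 5 TPM, without variance trend, with the compared groups alone, with the other control, with replicate number as a block, without 2 libraries of over 2% microRNA TPM, and without each library in turn. Shares of all genes are those of the main fit unless stated. Counts at an unadjusted p under 0.05 were made for the gene lists only, so no share of all genes stands beside them.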

Additional observations from a re-analysis of the deposited data

Results flagged for a closer look

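All results singled out here are differences of a stress response between a deletion line and WT that passed limma's test (adjusted p under 0.05 over 16083 genes). They are log2 differences on the log2(TPM + 1) scale, the response in the deletion line minus that in WT, and every one uses the same WT libraries within a stress.

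For starvation, the GCN2-deletion line differed from WT for Rrm2 by 0.47, for Rpa2 by 0.27 and for Gins4 by -0.26. The PERK-deletion line differed for Fen1 by 0.44, for Pcna by -0.29 and for Rfc4 by -0.27. Of all genes 3.69% responded more and 4.17% less in the GCN2-deletion line, and 5.58% and 5.34% in the PERK-deletion line. The Gins4 and Pcna calls ended on leaving out any 1 of 6 and of 8 libraries. Rrm2 is the 1 of these genes that passed in opposite directions, falling in WT and rising in the GCN2-deletion line.

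For thapsigargin, the GCN2-deletion line differed for Cdt1 by 0.45, for Gins3 by 0.40, for Rfc5 by 0.33, for Rrm2 by 0.29, for Prim2 by 0.21 and for Rpa3 by -0.58. The PERK-deletion line differed for Cdt1 by -0.84, for Mcm10 by -0.43, for Rfc4 by -0.42, for Orc6 by -0.41, for Chaf1b by -0.39, for Rfc3 by -0.38, for Gins1 by -0.30, for Cdc6 by -0.29, for Cdc45 by -0.25 and for Rrm2 by 0.20. Of all genes 12.3% responded more to thapsigargin and 1.95% less in the GCN2-deletion line, and 5.59% and 7.38% in the PERK-deletion line. The 5 positive differences of the GCN2-deletion line under thapsigargin did not pass after median-of-ratios rescaling. Those of Gins3, Rfc5 and Prim2 also ended on leaving out any 1 of 8 libraries. In the PERK-deletion line the calls ended on leaving out any 1 of 9 libraries for Cdc45 and Rrm2, 4 for Gins1 and 1 for Cdc6.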

How the results depend on the processing

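Counts are of the 41 members, and the shares of all genes under the same settings are not given in this section. The thapsigargin rise of Cdc6 in each line and of Cdt1 in WT and the GCN2-deletion line passed under all settings and without any 1 library. With the compared groups alone, starvation gave 1 risen and 5 fallen in WT and 0 and 0 in the PERK-deletion line; the starvation response was lower for 0 in each deletion line; the thapsigargin response was higher for 3 without GCN2 and 2 without PERK; untreated, 11 were lower in the GCN2-deletion line and 5 higher and 3 lower in the PERK-deletion line. Rescaling by median of ratios gave 1 fallen with thapsigargin in WT and 4 in the GCN2-deletion line, a starvation response higher for 1 and lower for 0 and a thapsigargin response higher for 0 and lower for 3 in the GCN2-deletion line, and 17 lower in the untreated PERK-deletion line. With no filter, 5 rose with starvation in WT, 0 rose and 0 fell in the PERK-deletion line, its starvation response was lower for 1, and the thapsigargin response was higher for 2 without GCN2 and 0 without PERK. The filter at 5 TPM gave a starvation response higher for 2 without PERK. Without variance trend 0 members of the PERK-deletion line rose under starvation and its thapsigargin response was higher for 0, and with a pseudocount of 0.1 again 0 rose with starvation.

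With the other control, thapsigargin gave 1 fallen in WT and 3 risen and 2 fallen in the PERK-deletion line; in the GCN2-deletion line the starvation response was lower for 0 and the thapsigargin response higher for 11 and lower for 2. Changes of sign in which the main or the altered fit passed were found only there, and other changes of sign were not counted. Rfc4 with starvation in the GCN2-deletion line became 0.17 (adjusted p = 0.0149 in limma) and Fen1 with thapsigargin in WT 0.0066 (0.951). The thapsigargin minus starvation difference in WT became -0.14 for Pold1 (0.694) and 0.25 for Gins4 (0.0159). Without the 2 libraries of high microRNA share, starvation gave 0 risen and 2 fallen in the PERK-deletion line, thapsigargin 2 fallen in the GCN2-deletion line, the starvation response was lower for 4 and the thapsigargin response higher for 2 without PERK, and 1 member responded less to thapsigargin than to starvation in WT. The cause of these moves was not tested.

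Deviations from group means correlated at 0.00167 on average between libraries of the same replicate number and at -0.00071 between those of different number. Of compared pairs 6.06% exceeded 0.1, and the lowest was -0.179. Such an average does not show whether single groups were paired. With replicate number as a block, the starvation response was higher for 2 in the PERK-deletion line, and no other count moved by over 1.5 times.

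Without each library in turn, risen and fallen counts ran from 5 to 7 and 5 to 10 for starvation in WT, 5 to 7 and 2 to 3 in the GCN2-deletion line, and 0 to 2 and 0 to 2 in the PERK-deletion line. For thapsigargin they ran from 12 to 12 and 1 to 3 in WT, 20 to 25 and 1 to 2 in the GCN2-deletion line, and stayed at 1 and 0 in the PERK-deletion line. DMSO gave 0 to 2 risen in WT and 0 otherwise. Starvation responses ran from 2 to 3 higher and 0 to 1 lower without GCN2 and 1 to 2 and 1 to 3 without PERK; thapsigargin responses from 2 to 9 and 1 to 1 without GCN2 and 0 to 1 and 6 to 11 without PERK; the difference of both stresses from 8 to 11 and 0 to 1. Untreated, 3 to 4 were higher and 14 to 22 lower in the GCN2-deletion line, and 7 to 13 and 8 to 13 in the PERK-deletion line.

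With technical replicates of 1 line, these tests do not measure variation between cultures or lines, and TPM shows no depth.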
